A study of Mus musculus with 7 samples.

Results

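Insulin and carbohydrate response regulators were examined in 2 fat depots of wild-type mice. Members were the phosphoinositide 3-kinase catalytic gene Pik3cb and the carbohydrate response factor gene Mlxipl, plus any measured gene among Insr, Irs1, Irs2, Akt1, Akt2, Pde3b, Pik3r1 and Pik3ca. Of these 10 genes, 4 had a probe with exactly 1 gene symbol and were measured (Pik3cb, Mlxipl, Irs2 and Pik3r1), out of 9294 genes in all. The other 6 (Insr, Irs1, Akt1, Akt2, Pde3b and Pik3ca) were not analysed here. Total RNA was taken directly from paracardial fat, the depot beside the heart (4 arrays), and from intra-abdominal fat (3 arrays). All samples came from wild-type male C57 mice, with no treatment named in the labels. Each sample was hybridised to 1 Affymetrix array. Samples of a depot are called biological replicates in the labels, which do not tie each to its own animal, so a p-value here reflects sample-to-sample spread alone, which may be technical. With 7 arrays, precision is limited by their number.

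Insulin binds its receptor, which phosphorylates docking proteins such as Irs2. These recruit phosphoinositide 3-kinase, a dimer of a regulatory subunit such as p85 alpha (Pik3r1) and a catalytic subunit such as p110 alpha or p110 beta (Pik3cb), whose lipid product activates Akt. In adipocytes Akt moves the glucose transporter Slc2a4 to the cell surface and restrains lipolysis, in part through the phosphodiesterase Pde3b. Glucose entering the cell is sensed by ChREBP, the product of Mlxipl, a basic helix-loop-helix factor that pairs with Mlx and turns on genes of glycolysis and fatty acid synthesis in liver and fat. The p110 beta subunit also responds to G protein-coupled receptors.

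The start-site windows of Pik3cb, Mlxipl and Irs2 are shown because the first 2 genes were lower in paracardial fat, and for the short motifs searched in them. Each motif was searched as a single site, and paired sites were not searched. Counts of these motifs therefore do not show whether ChREBP or a forkhead factor binds. The RefSeq table (GRCm38.p6) gives 250 bases before and 50 after a gene's start. It matched all 4 measured members, with 6 windows, of which 4 are printed 5′ to 3′ on the gene's own strand. Capitals mark the E-box CACGTG, the insulin response sequence TGTTTTG and the GC box GGGCGG, searched on both strands, and none of these matches overlap each other.
Pik3cb, chr9:99140162-99140461, minus strand: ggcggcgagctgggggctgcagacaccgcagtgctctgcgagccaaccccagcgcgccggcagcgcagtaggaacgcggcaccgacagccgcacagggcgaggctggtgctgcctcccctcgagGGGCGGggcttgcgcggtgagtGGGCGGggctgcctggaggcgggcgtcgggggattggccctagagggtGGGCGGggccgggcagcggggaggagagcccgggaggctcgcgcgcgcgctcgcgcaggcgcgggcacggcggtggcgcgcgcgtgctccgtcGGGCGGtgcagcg
Mlxipl, upstream start, chr5:135089640-135089939, plus strand: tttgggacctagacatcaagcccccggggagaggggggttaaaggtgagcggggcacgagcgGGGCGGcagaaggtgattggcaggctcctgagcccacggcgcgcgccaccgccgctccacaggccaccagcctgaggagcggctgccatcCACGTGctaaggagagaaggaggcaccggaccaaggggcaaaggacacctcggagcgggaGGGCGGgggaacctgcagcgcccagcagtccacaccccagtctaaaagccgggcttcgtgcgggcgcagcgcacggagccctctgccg
Mlxipl, downstream start, chr5:135106641-135106940, plus strand: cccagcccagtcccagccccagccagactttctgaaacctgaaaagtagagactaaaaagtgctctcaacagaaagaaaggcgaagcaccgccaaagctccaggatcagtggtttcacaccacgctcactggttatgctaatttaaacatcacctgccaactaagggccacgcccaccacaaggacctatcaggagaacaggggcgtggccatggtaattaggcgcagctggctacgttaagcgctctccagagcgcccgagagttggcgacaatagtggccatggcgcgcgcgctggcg
Irs2, chr8:11008880-11009179, minus strand: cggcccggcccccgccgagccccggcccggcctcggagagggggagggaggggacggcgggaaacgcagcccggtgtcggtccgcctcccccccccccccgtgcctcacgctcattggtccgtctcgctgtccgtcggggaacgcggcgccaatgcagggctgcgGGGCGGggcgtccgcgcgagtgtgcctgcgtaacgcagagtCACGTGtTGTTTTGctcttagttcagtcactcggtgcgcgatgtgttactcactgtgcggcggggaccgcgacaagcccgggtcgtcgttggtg

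The upstream Mlxipl window held 1 E-box, 98 bases before the start, and the downstream window held none. The Irs2 window held 1 E-box, 44 bases before the start, followed by 1 insulin response sequence at 37 bases before it. Pik3cb and Pik3r1 had neither motif in their windows. Across all 32851 windows of the table, 7.15% held an E-box and 6.28% an insulin response sequence. GC boxes numbered 4 in the Pik3cb window, 2 in the upstream Mlxipl window, 1 in the Irs2 window and 4 in the upstream Pik3r1 window, and 35.7% of all windows held at least 1. The forkhead site TGTTTAC, present in 3.65% of windows, was in none of the 6 member windows. The array values do not separate the 2 Mlxipl starts, since 1 probe stands for the whole gene.

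Values are the authors' log2 expression values, and a difference is the paracardial mean minus the intra-abdominal mean. It was tested with limma over all 9294 genes, with Benjamini-Hochberg adjustment over all of them and a threshold of 0.05. Over all genes the median difference was 0.13, and it was -0.0052 once each array had its own median subtracted. By this test 2.91% of all genes were lower and 6.25% were higher in paracardial fat. The highest value of an array, called its ceiling here, was 19.93 on paracardial array 4 and intra-abdominal array 3. It was 19.81 to 19.84 on the other 5 arrays, and no member came near it. The 2 arrays at 19.93 are called the higher-ceiling arrays below.

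The depots differed in tissue markers, and the part of this in the values that follow was not tested. Adipocyte markers (11 of 15 measured) had medians of 6.02, 6.23, 8.96 and 9.68 on paracardial arrays 1 to 4, against 14.6, 14.4 and 16.0 on intra-abdominal arrays 1 to 3. Of them 7 were lower in paracardial fat, none was higher and 4 did not pass. The adipocyte hormone leptin, Lep, had 6.30, 5.56, 6.67 and 9.26 on the paracardial arrays, against 15.03, 14.95 and 16.45 on the intra-abdominal arrays (difference -8.53 ± 0.91, SE, limma adjusted p = 0.0082). Adiponectin, Adipoq, had 5.18 and 5.53 on paracardial arrays 1 and 2, 9.92 and 9.73 on arrays 3 and 4, and 11.74, 12.71 and 13.45 on the intra-abdominal arrays (difference -5.04 ± 1.38, SE, adjusted p = 0.072). On paracardial arrays 1 and 2 the adipocyte marker medians were thus close to the medians of all probes, 6.07 and 6.005.

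Thymocyte markers (6 of 14 measured) ran the other way, with medians of 11.84, 11.10, 12.78 and 14.17 on the paracardial arrays and 9.74, 6.11 and 5.30 on the intra-abdominal arrays, and 3 of the 6 were higher in paracardial fat. Thymic epithelial markers (7 of 10 measured) had medians of 10.08 to 11.78 on the paracardial arrays and 5.25 to 8.02 on the intra-abdominal arrays, with 4 higher. Endothelial markers (4 of 8 measured) had medians of 5.28 to 6.98 on the paracardial arrays and 8.73 to 12.10 on the intra-abdominal arrays, with 2 lower. None of the 6 macrophage markers measured passed, with medians of 6.90 to 9.74 in paracardial fat and 8.52 to 12.70 in intra-abdominal fat, the highest on intra-abdominal array 3. Of the fibroblast and stromal markers 2 of 8 were measured, Dpt (difference -5.36, limma adjusted p = 0.137) and Lum (-2.94, 0.110). Neither passed, although both were lower on all paracardial arrays than on all intra-abdominal arrays, and both passed with array weights and with the ceiling of the array as a block. Their medians were 6.58, 6.27, 8.35 and 9.74 on the paracardial arrays and 10.26, 10.45 and 14.93 on the intra-abdominal arrays.

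Paracardial array 4 stood apart in brown fat markers (4 of 8 measured, none passed), with a median of 8.81, against 5.21 to 5.93 on the other paracardial arrays and 5.09 to 5.78 on the intra-abdominal arrays. Ucp1, the uncoupling protein of brown fat, was 13.92 on that array and 4.61, 4.99 and 6.14 on the remaining paracardial arrays, against 4.84, 4.57 and 4.36 on the intra-abdominal arrays. Cidea, a lipid droplet protein of brown fat that the adipocyte list also holds, was 9.38 there and 5.81 to 6.47 on the other 6 arrays. Pik3cb, Irs2 and Pik3r1 had their highest paracardial value on that array, and without it their differences were -1.71, -0.94 and -2.06. No marker passed among those measured for B cells (5), mesothelium (2) or striated muscle (2). In bulk tissue fewer cells of a type and less RNA per cell cannot be told apart, and the part of these cell types in the results below was not tested.

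Both Pik3cb and Mlxipl were lower in paracardial fat, while Irs2 and Pik3r1 did not pass the test. That is 2 of 4 measured members lower and none higher, beside 2.91% lower over all genes. The same 2 members were lower on every paracardial array than on every intra-abdominal array, which held for 8.78% of all genes (26.7% when genes higher on every paracardial array are counted too). Pik3cb and Mlxipl were chosen with earlier results of these data known, so these shares are a description of the members.

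**Figure D1:**
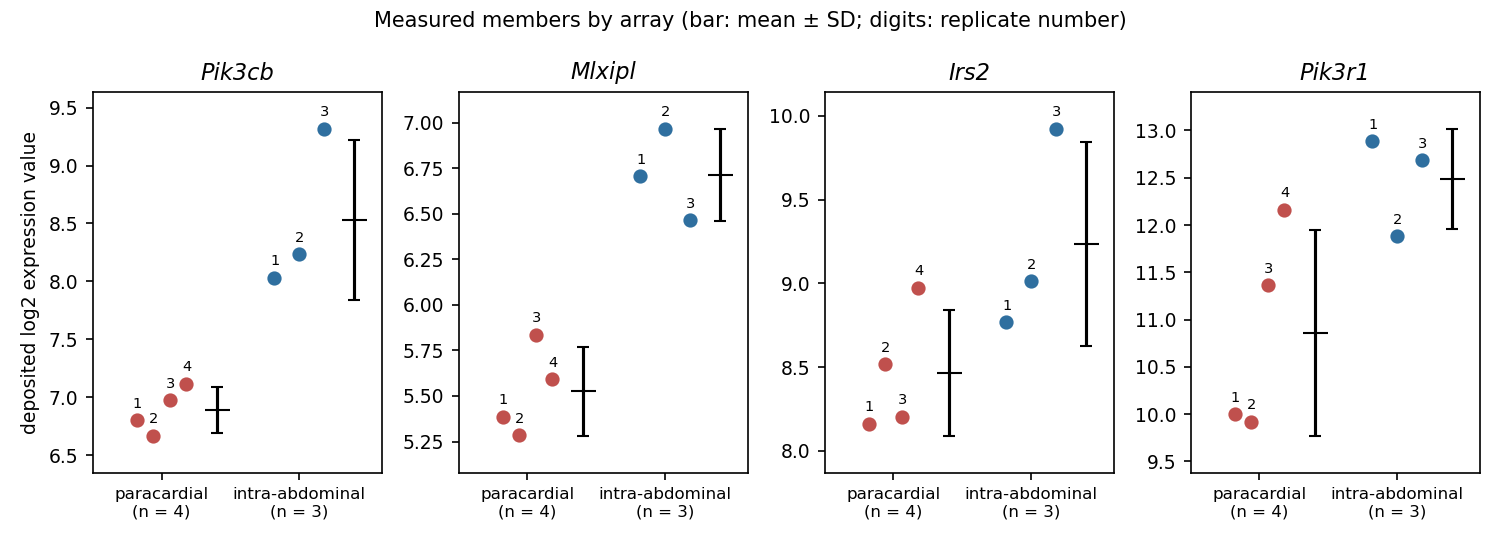
Deposited log2 expression values (y axis, a separate scale in each panel) of the 4 measured members on each of the 4 paracardial arrays (red) and 3 intra-abdominal arrays (blue). Digits give the replicate number, and the black bar is the mean ± SD of the depot. The depots are apart for Pik3cb and Mlxipl and overlap for Irs2 and Pik3r1.

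Pik3cb lies on chromosome 9 (99038402 to 99140235, GRCm38.p6, minus strand). Its log2 values were 6.80, 6.67, 6.97 and 7.11 on paracardial arrays 1 to 4, against 8.03, 8.23 and 9.32 on intra-abdominal arrays 1 to 3. All paracardial arrays were below all intra-abdominal arrays, with a gap of 0.92 between the nearest 2 arrays, and the 4 paracardial values spanned 0.45 where the 3 intra-abdominal values spanned 1.28. Paracardial fat averaged 6.89 ± 0.20 (SD, n = 4), against 8.53 ± 0.69 (SD, n = 3) for intra-abdominal fat. The difference was -1.64 ± 0.34 (SE), and its 95% interval ran from -2.45 to -0.83 (limma adjusted p = 0.033). A two-sided exact permutation test over all 35 splits of the arrays gave p = 0.0286, the smallest value it can give. That p-value is unadjusted and describes the same separation of the arrays, in a gene chosen with earlier results known. Intra-abdominal array 3 held the highest Pik3cb value, and without it the difference was -1.24 (limma adjusted p = 0.021). Within the 5 lower-ceiling arrays the difference was -1.32, and between the 2 higher-ceiling arrays it was -2.20.

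Mlxipl lies on chromosome 5 (135089890 to 135139768, GRCm38.p6, plus strand). Its log2 values were 5.39, 5.28, 5.84 and 5.59 on paracardial arrays 1 to 4, against 6.71, 6.97 and 6.46 on intra-abdominal arrays 1 to 3. The depots did not overlap, the gap being 0.63, and the arrays of each depot lay within 0.55 (paracardial) and 0.50 (intra-abdominal) of each other. Every paracardial value was below its array's median over all probes (6.005 to 6.37), and every intra-abdominal value was above it (5.995 to 6.12). Signal over background is unknown for these files, so whether Mlxipl was above background in paracardial fat is not settled by the values. Paracardial fat averaged 5.52 ± 0.24 (SD, n = 4), against 6.71 ± 0.25 (SD, n = 3) for intra-abdominal fat. The difference was -1.19 ± 0.22 (SE), and its 95% interval ran from -1.71 to -0.66 (limma adjusted p = 0.024). The two-sided exact permutation test gave p = 0.0286 here too, again the smallest possible and with the same limits. Within the lower-ceiling arrays the difference was -1.33, and between the higher-ceiling arrays it was -0.87.

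The calls of both genes often did not hold with 1 array left out, where 185 to 833 of all genes were called, against 851 as deposited. The differences then stayed negative, at -1.89 to -1.24 for Pik3cb and -1.31 to -1.06 for Mlxipl. When arrays were left out in turn, Pik3cb passed the limma threshold 2 times of 7, and its adjusted p was 0.095, 0.089, 0.078 and 0.058 without paracardial arrays 1, 2, 3 and 4 and 0.091 without intra-abdominal array 2. Mlxipl passed 3 times of 7, with 0.076 and 0.068 without paracardial arrays 1 and 2 and 0.062 and 0.104 without intra-abdominal arrays 1 and 2. Paracardial arrays 1 and 2, where adipocyte markers were lowest, were also left out together. The difference was then -1.48 for Pik3cb (adjusted p = 0.202) and -0.998 for Mlxipl (0.159), on 2 arrays against 3.

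**Figure D2:**
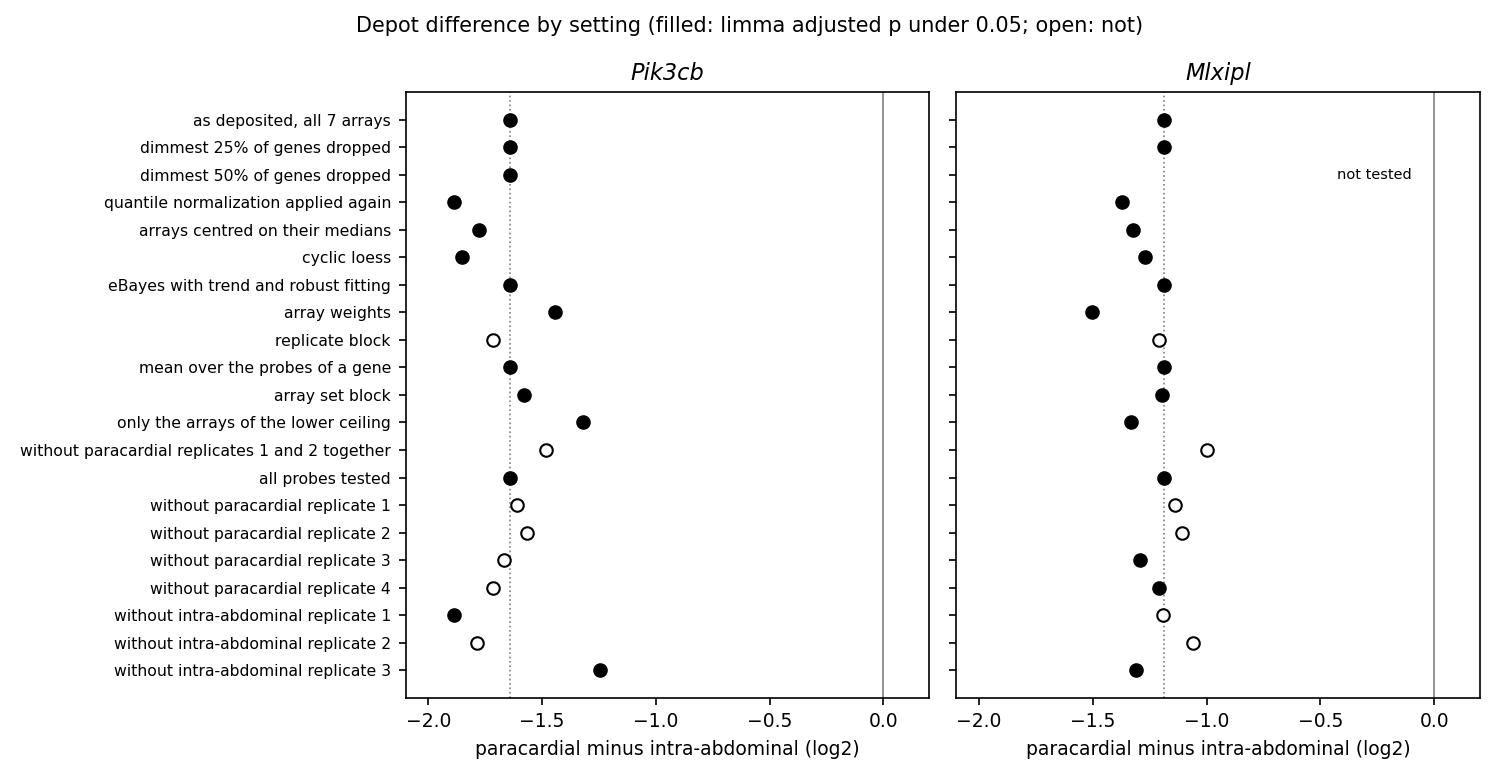
Paracardial minus intra-abdominal difference (x axis, log2) of Pik3cb (left) and Mlxipl (right) under each setting (rows), the grey line marking no difference and the dotted line the value from all 7 arrays as deposited. Filled points have a limma adjusted p under 0.05 and open points do not. All points lie below 0, from -1.89 to -1.24 for Pik3cb and from -1.51 to -0.998 for Mlxipl.

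Pik3r1, the regulatory partner of p110 subunits, lies on chromosome 13 (101680761 to 101768217, GRCm38.p6, minus strand). Its log2 values were 9.999, 9.92, 11.36 and 12.16 on paracardial arrays 1 to 4, against 12.89, 11.88 and 12.68 on intra-abdominal arrays 1 to 3. Paracardial arrays 1 and 2 were low, while paracardial array 4 lay above intra-abdominal array 2, so the depots overlapped. The difference was -1.62 ± 0.62 (SE), with a 95% interval from -3.10 to -0.15, close in size to that of Pik3cb with a wider spread (limma adjusted p = 0.165; exact permutation p = 0.114). Between the 2 higher-ceiling arrays it was -0.53 and within the other 5 it was -1.96. It passed when quantile normalization was applied again (-2.48, limma adjusted p = 0.029) and after cyclic loess (-2.33, 0.029). Without paracardial arrays 1 and 2 it was -0.72 (0.489).

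Irs2, the docking protein of the insulin and insulin-like growth factor receptors, lies on chromosome 8 (10984681 to 11008929, GRCm38.p6, minus strand). Its log2 values were 8.16, 8.52, 8.20 and 8.97 on paracardial arrays 1 to 4, against 8.77, 9.01 and 9.92 on intra-abdominal arrays 1 to 3. Paracardial array 4 lay above intra-abdominal array 1, and the remaining paracardial arrays were below all intra-abdominal arrays. The difference was -0.77 ± 0.35 (SE), with a 95% interval from -1.61 to 0.07 (limma adjusted p = 0.244; exact permutation p = 0.0857). After cyclic loess it was -1.13 and passed (limma adjusted p = 0.036).

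The members spanned different ranges across the paracardial arrays. Between the lowest and the highest paracardial array the adipocyte marker median spanned 6.02 to 9.68, and Pik3r1 spanned 2.24, Irs2 0.81, Mlxipl 0.55 and Pik3cb 0.45 on the same log2 scale. Pik3cb, Mlxipl and Pik3r1 were lower on paracardial arrays 1 and 2 than on arrays 3 and 4, as the adipocyte marker medians were, and Irs2 was not. The part of the markers in this order was not tested. Each member's value minus the adipocyte marker median of the same array is given as a description, since the marker difference is several times that of any member and fixes its direction. It was 5.65 higher in paracardial fat for Pik3cb, 6.11 for Mlxipl, 6.52 for Irs2 and 5.67 for Pik3r1.

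**Figure D3:**
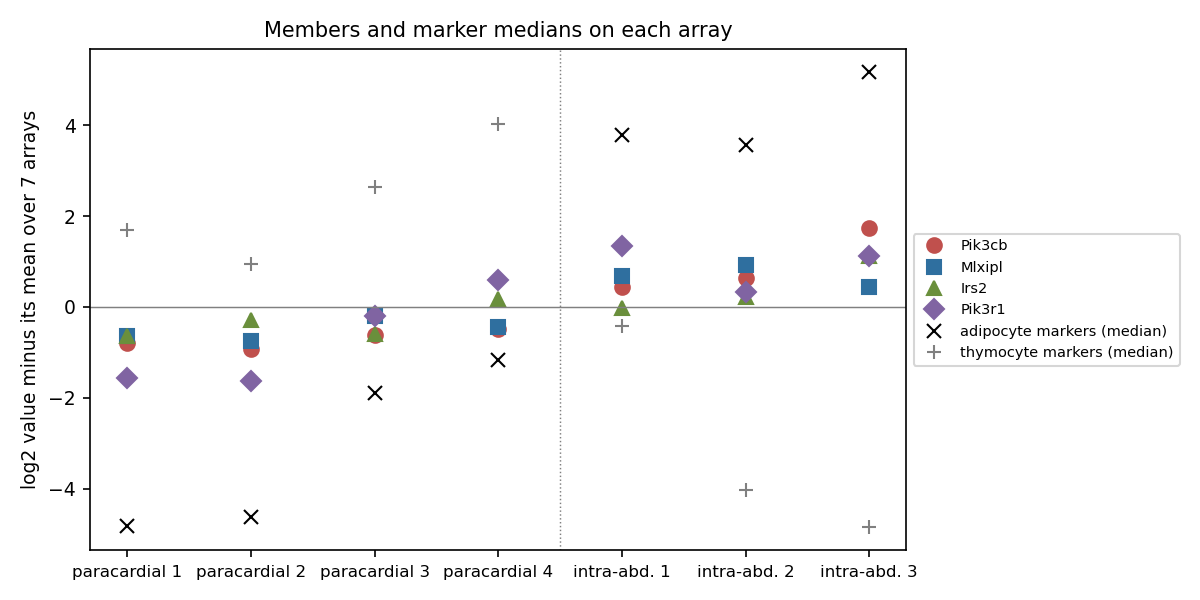
Log2 value of each member, and the median of the adipocyte and of the thymocyte markers, on each array, minus the same item's mean over all 7 arrays (y axis, log2). Arrays run along the x axis, paracardial left of the dotted line and intra-abdominal right of it. Adipocyte marker medians move over a far wider range than the 4 members. Thymocyte marker medians are higher in paracardial fat, where adipocyte marker medians are lower, yet among the paracardial arrays both are highest on array 4.

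Genes with the array profile nearest to a member were found by the root mean square difference of values centred on each gene's mean, over 7 arrays and 5779 named genes. Nearest to Pik3cb were Fam20c (0.076), a kinase of secreted proteins, Slc9a3r2 (0.098), a scaffold of membrane transporters, Dock1 (0.134), an activator of Rac, Ldb2 (0.140), a partner of LIM-domain factors, and Hsd3b7 (0.148), an enzyme of bile acid synthesis. Nearest to Mlxipl were the transcription factor gene Sox6 (0.169), the peptidoglycan sensor gene Nod1 (0.178), the secreted factor gene C1qtnf7 (0.233), the netrin gene Ntn4 (0.240) and Steap3 (0.245), an iron reductase. Since these 10 were picked for profiles like those of genes that were lower, their depot differences are a description, at -1.68 to -1.43 for the Pik3cb group and -1.45 to -0.88 for the Mlxipl group. Pik3cb and Mlxipl were farther from each other (0.540), and Irs2 was at 0.483 from Pik3cb and 0.567 from Mlxipl. Pik3r1 was at 0.726 from Pik3cb and 0.756 from Mlxipl.

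The wider pathway was described with 9 lists holding 134 genes, of which 41 were measured. Of these, 5 were lower in paracardial fat (12.2%, beside 2.91% of all genes), none was higher (beside 6.25%) and 36 did not pass. Their median difference was -0.35, beside 0.13 over all genes, and 28 of the 41 had a negative difference (68.3%, beside 39.4% of all genes). Pik3cb and Mlxipl, chosen with earlier results known, were 2 of the 5, and 3 of the 37 genes other than the members were lower. With array weights 17 of the 41 were lower and 4 were higher, beside 1379 lower and 2235 higher among all 9294 genes. The count of 5 was 0 without paracardial array 1, without paracardial array 2 or without intra-abdominal array 2, 1 without paracardial array 3 and 3 without intra-abdominal array 3. Over all 9294 genes 62, 83, 71, 128 and 264 were lower in these settings, against 270 as deposited. As deposited, 12 of the 41 were lower on every paracardial array than on every intra-abdominal array, and 5 were higher on every one. Over all genes 8.78% were lower in this way, and 26.7% were apart in either direction.

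Nothing passed as deposited in the receptor and adaptor lists, with 1 receptor gene and 5 adaptors measured. The insulin receptor gene was not among them, so the receptor step of insulin signalling was not covered. The receptor list had 1 measured gene of 6, Igf2r, a clearance receptor for insulin-like growth factor 2, with values of 7.56, 7.33, 8.01 and 8.53 in paracardial fat and 8.24, 8.18 and 9.58 in intra-abdominal fat (difference -0.81 ± 0.45, SE, adjusted p = 0.345). With array weights Igf2r passed (-0.65, limma adjusted p = 0.043). Of 5 measured adaptors none passed as deposited, with a median difference of -0.77. With array weights 3 of them were lower. After cyclic loess, with the ceiling of the array as a block and without intra-abdominal array 1, 2 were lower each time. Over all 9294 genes 1379, 530, 573 and 274 were lower in these settings. The adaptor Irs3, a docking protein of rodent fat, had 4.71, 4.92, 4.50 and 4.91 on the paracardial arrays, against 5.35, 6.35 and 7.67 on the intra-abdominal arrays. The depots were apart, yet the intra-abdominal arrays differed among themselves by more than the gap, and the difference of -1.69 ± 0.52 (SE) did not pass (adjusted p = 0.098). Irs3 passed without intra-abdominal array 1 (-2.25, limma adjusted p = 0.037) and with array weights (-1.50, 0.0033), and its difference was -1.09 without intra-abdominal array 3. Sh2b2, an adaptor of the insulin receptor named after its values were seen, differed by -1.02 ± 0.27 (SE, adjusted p = 0.066), also without overlap. The general adaptors Grb2 and Dok1 differed by 0.33 and 0.24, with paracardial array 4 above the other 6 arrays in both.

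Among 5 measured phosphoinositide 3-kinase subunits, 1 was lower (Pik3cb), none was higher and 4 did not pass, with a median difference of -0.19. Apart from Pik3cb and Pik3r1 these were Pik3r4, a regulatory subunit of the class III kinase (-0.12 ± 0.32, SE), and the class II kinases Pik3c2b (0.05 ± 0.15) and Pik3c2g (-0.19 ± 0.28). Differences between subunits were not tested. Of 2 measured genes in the Akt list neither passed, with Mtor at -0.32 ± 0.25 (SE, adjusted p = 0.502).

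Targets of Akt held 2 of the 5 genes that were lower, among 5 measured (median difference -0.38). Eif4ebp1, a translation repressor that mTOR complex 1 inactivates, had 7.49, 6.78, 8.22 and 7.84 on the paracardial arrays, against 9.22, 10.58 and 12.02 on the intra-abdominal arrays (difference -3.03 ± 0.68, SE, limma adjusted p = 0.042). Slc2a4, the insulin-responsive glucose transporter, had 5.36, 5.27, 6.30 and 6.44 on the paracardial arrays, against 7.42, 7.94 and 9.52 on the intra-abdominal arrays (difference -2.45 ± 0.57, SE, adjusted p = 0.047). In both genes the depots did not overlap and intra-abdominal array 3 was highest, as for Pik3cb. That array was also highest for Irs2, Inppl1 and Agpat2 and for the adipocyte, endothelial and macrophage marker medians, and not for Mlxipl or Pik3r1. Eif4ebp1 and Slc2a4 each passed only without intra-abdominal array 1 when arrays were left out in turn. Inhibitors of the pathway had no gene that passed among 4 measured, with a median difference of 0.27. The lipid phosphatase Inppl1 came nearest (6.31, 6.39, 6.31 and 6.16 in paracardial fat and 7.07, 7.25 and 8.27 in intra-abdominal fat, difference -1.24 ± 0.31, SE, adjusted p = 0.058). It passed under 6 of 20 alternatives, among them quantile normalization (-1.38, limma adjusted p = 0.039), the lower-ceiling arrays alone (-0.82, 0.029) and leaving out intra-abdominal array 3 (-0.87, 0.034). Only 2 of the 4 inhibitors had a negative difference. Socs1 (0.71 ± 0.26, SE, limma adjusted p = 0.155) and Ptprf (1.07 ± 0.60, 0.348) were higher on every paracardial array than on every intra-abdominal array. Both were named after their values were seen.

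**Figure D4:**
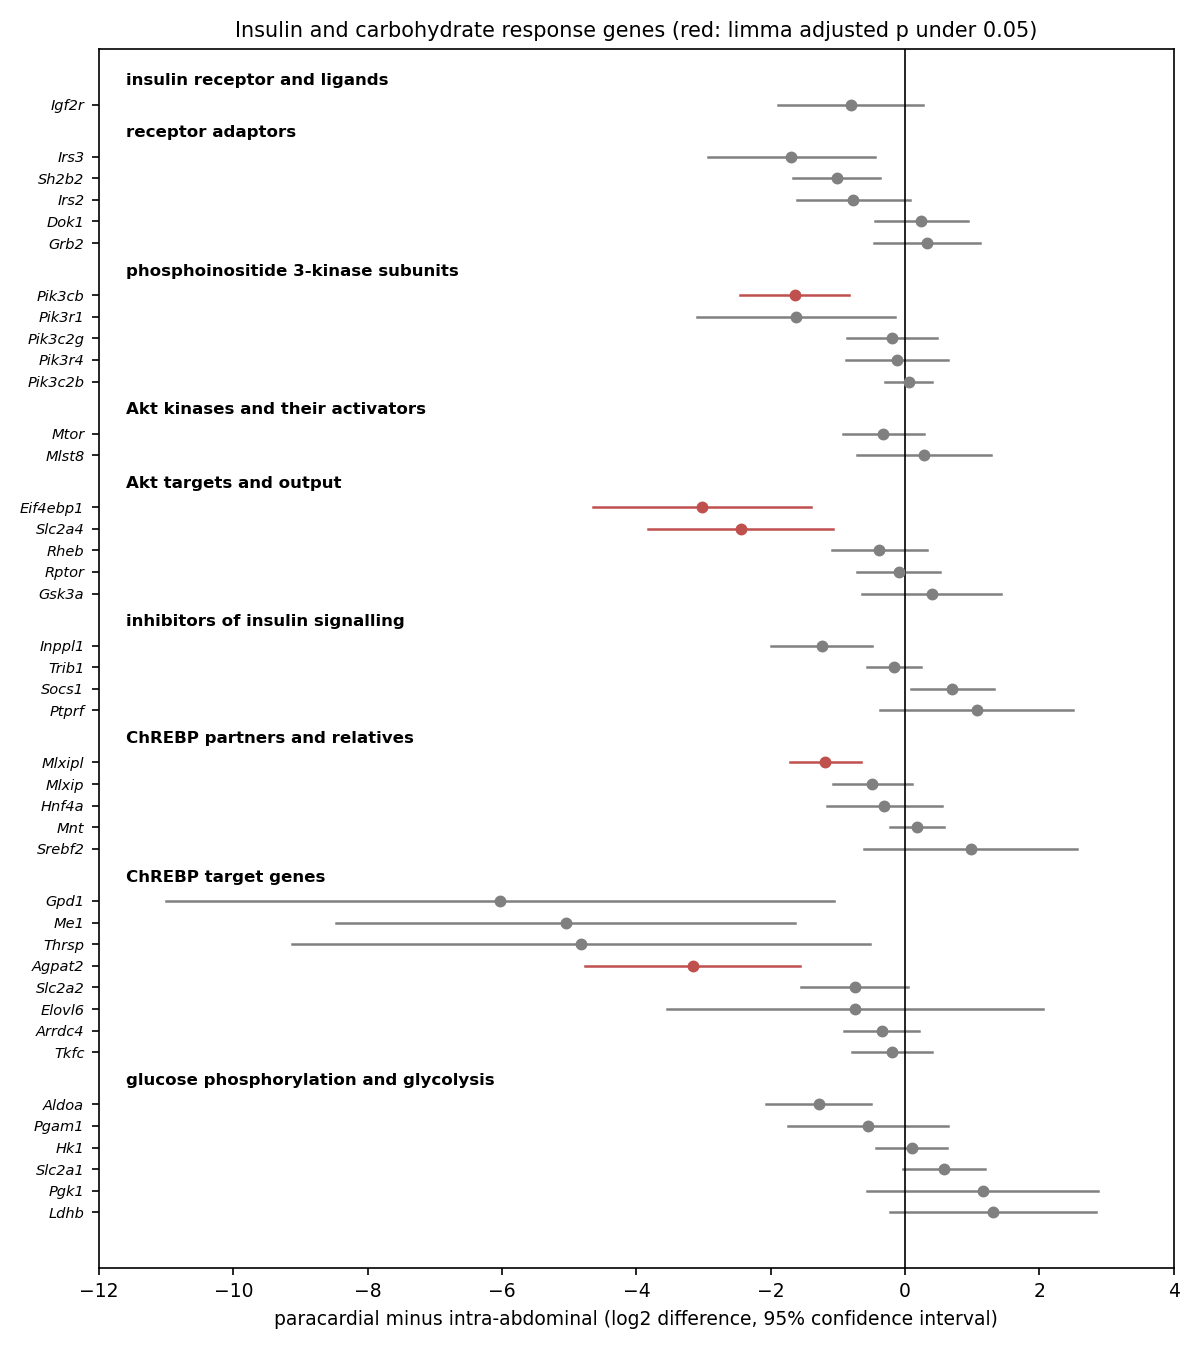
Paracardial minus intra-abdominal difference (x axis, log2, point) with its 95% confidence interval (line) for the 41 measured genes of the 9 pathway lists, grouped by list. Red genes had a limma adjusted p under 0.05 over all genes and grey genes did not. The 5 red genes, Pik3cb, Eif4ebp1, Slc2a4, Mlxipl and Agpat2, are all below 0.

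On the carbohydrate side, Mlxipl was the only 1 of 5 measured partners and relatives that passed (median difference -0.31). Its paralog Mlxip, which encodes the related glucose sensor MondoA and was named after its values were seen, had 7.07, 6.88, 7.51 and 7.64 on the paracardial arrays, against 7.59, 7.88 and 7.83 on the intra-abdominal arrays. The depots overlapped, and the difference was -0.49 ± 0.25 (SE, adjusted p = 0.289). Of 8 measured target genes of ChREBP all 8 had a negative difference (beside 39.4% of all genes), 1 passed, and the median difference was -1.96. It was Agpat2, an enzyme of triglyceride synthesis, with 7.35, 7.53, 8.77 and 9.55 on the paracardial arrays and 10.70, 11.22 and 12.45 on the intra-abdominal arrays (difference -3.16 ± 0.67, SE, limma adjusted p = 0.035). With arrays left out in turn, Agpat2 passed only without paracardial array 4, and the median of the target genes was between -2.58 and -1.80. The smallest of the 8 differences were those of Tkfc (-0.19 ± 0.25, SE), Arrdc4 (-0.35 ± 0.23) and Elovl6 (-0.74 ± 1.17), named after their values were seen.

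Some larger target differences did not pass, and the genes given here were named after their values were seen. Gpd1, which makes glycerol phosphate, had 5.78, 6.32, 10.65 and 13.96 on paracardial arrays 1 to 4, against 13.90, 14.82 and 16.88 on the intra-abdominal arrays (difference -6.03 ± 2.08, SE, adjusted p = 0.132). Thrsp, a lipogenic regulator, had 5.51, 5.67, 10.66 and 11.94, against 11.95, 13.27 and 14.58 (difference -4.82 ± 1.80, SE, adjusted p = 0.159). The malic enzyme gene Me1 differed by -5.05 ± 1.43 (SE, adjusted p = 0.079). All 3 were low on paracardial arrays 1 and 2 and higher on arrays 3 and 4, the order the adipocyte markers showed. None of 6 measured genes of glucose phosphorylation and glycolysis passed, with a median difference of 0.34. Ldhb, a lactate dehydrogenase subunit, had the largest (1.31 ± 0.64, SE, adjusted p = 0.280). Ldhb was 10.39, 10.57, 9.94 and 11.24 on the paracardial arrays, against 10.74, 8.20 and 8.74 on the intra-abdominal arrays, so the depots overlapped. The difference passed without intra-abdominal array 1 (2.06, limma adjusted p = 0.045) and with array weights (1.89, 0.020), and it was 0.79 without intra-abdominal array 2. The glycolytic enzyme gene Aldoa, named after its values were seen, differed by -1.29 ± 0.33 (SE, adjusted p = 0.059). It had 8.65, 8.62, 8.52 and 9.49 on the paracardial arrays, against 9.64, 10.20 and 10.48 on the intra-abdominal arrays, without overlap. In this list 1 gene was lower and none higher after quantile normalization, median centring and cyclic loess. The same held with the ceiling of the array as a block, in the lower-ceiling arrays alone and without paracardial array 4. Over all 9294 genes 416, 340, 530, 573, 316 and 204 were lower in these settings. With array weights 1 of the list was lower and 3 were higher, beside 1379 and 2235 of all genes.

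Exact repeats occurred in the deposited values. Of 9294 genes, 1769 held the same value on more than 1 array, and so did 13 of the 41 pathway genes, such as Dok1 with 5.09 on paracardial arrays 1 and 3 and intra-abdominal arrays 2 and 3. None of the 4 members held a repeated value.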

How the data were processed

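Gene expression in 4 paracardial and 3 intra-abdominal fat samples was measured on Affymetrix arrays. The authors deposited a log2 expression value for each probe on each array. The submitters' processing notes name RMA and the Affymetrix Expression Console. Tool versions, any background correction and the build could not be stated (not given in the sources used here). How the scale was centred, and what sets its highest value, is not known. Scanner output was not used here.

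Of 11949 probes, 9352 had exactly 1 symbol in the platform annotation, 522 named more than 1 gene and 2075 carried no symbol. Entrez identifiers served to update old symbols (5789 probes matched the RefSeq table, GRCm38.p6, and 188 symbols changed). The probe with the highest mean was kept for 52 genes with several, leaving 9294 genes, with no filter on low values. Each member had 1 probe.

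A linear model without covariates was fitted to all 7 arrays in limma 3.58.1 (R 4.3.3), using lmFit and then eBayes with no trend, and tests were two-sided. Exact permutation tests counted splits with at least as large an absolute difference. Other steps used Python 3.11.15 with matplotlib 3.10.9, scipy 1.17.1, numpy 2.4.6 and pandas 2.3.3, and the fit was tested on simulated data. The members and lists were chosen with earlier results of these data known. Genes named were all measured members, up to 6 genes per pathway list that passed (or the 1 with the largest absolute difference where none did), Lep, Adipoq and the 5 profiles nearest to Pik3cb and to Mlxipl, leaving out unnamed gene models and microRNAs. Any other gene was named after its values were seen. Alternatives were filters on dim genes, other normalizations, variance models, blocks, probe choices and left-out arrays.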

Additional observations from a re-analysis of the deposited data

Results flagged for a closer look

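Ldb2, among the genes with a profile near that of Pik3cb, had 4.75 on paracardial array 2, against 5.14, 5.14 and 5.16 on the other 3 paracardial arrays. Its distance from the nearest of them, divided by the range of all 4, exceeded Dixon's critical value of 0.829 for 4 samples. Chance alone passes that value in about 1 of 20 groups, and 24 genes were tested. None of the 4 members exceeded it.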

How the results depend on the processing

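Pik3cb, Mlxipl, Irs2 and Pik3r1 kept a negative difference under each alternative run. Pik3cb passed in 13 of 20 and Mlxipl in 13 of 19, since Mlxipl was among the dimmest 50% of genes and was not tested when these were dropped. Without paracardial arrays 1 and 2 the differences were -1.48 for Pik3cb, -0.998 for Mlxipl, -0.65 for Irs2 and -0.72 for Pik3r1. Leaving out 1 array gave -1.89 to -1.24 for Pik3cb, -1.31 to -1.06 for Mlxipl, -1.003 to -0.43 for Irs2 and -2.06 to -1.31 for Pik3r1. With the replicate block, which gives paracardial array 4 a block of its own, Pik3cb differed by -1.71 (limma adjusted p = 0.089) and Mlxipl by -1.21 (0.134), with 0 genes called and 2134 at an unadjusted p under 0.05. Correlations of deviations across genes were 0.048, 0.047 and -0.5 for same-numbered arrays, and -0.379 to 0.49 for the other pairs. With 4 and 3 arrays these cannot settle whether same-numbered samples came from 1 animal, which the labels do not give. Irs2 passed after cyclic loess (-1.13), with array weights (-0.71) and with the ceiling of the array as a block (-0.70), and Pik3r1 after quantile normalization (-2.48), cyclic loess (-2.33) and array weights (-1.82). Between the higher-ceiling arrays Mlxipl differed by -0.87 and Pik3r1 by -0.53. With the mean of the adipocyte markers, Pik3cb minus the markers was 4.61 and Mlxipl minus the markers 5.06. Leaving out 1 array gave 5.12 to 6.23 for Pik3cb and 5.48 to 6.74 for Mlxipl minus the marker median.

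Genes called numbered 851 as deposited, 3614 with array weights (2235 higher, 1379 lower), 1654 with the ceiling block, 1 without paracardial arrays 1 and 2, and 185 to 833 with 1 array left out. The split was 432 higher and 416 lower after quantile normalization and 512 and 530 after cyclic loess, against 581 and 270 as deposited. Pathway genes called numbered 5 as deposited, 9 after quantile normalization, 11 after cyclic loess, 21 with array weights (17 lower, 4 higher), 10 with the ceiling block, 0 with the replicate block or without paracardial arrays 1 and 2, and 0 to 6 with 1 array left out. The cause of these changes was not tested. Signal over background is unknown and limits the dim genes, Mlxipl among them.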
